A study of Nannochloropsis oceanica strain IMET1 with 15 samples.

Results

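Most of the first 29 genes of chromosome 18 of the oil-producing microalga *Nannochloropsis oceanica* IMET1 were weakly transcribed in the wild type (WT). The 29 genes run from NO18G00010 to NO18G00290, and their summed level was lower still in the knockout line M2. They were chosen by position, as all nuclear genes of chromosome 18 (IMET1v2 genome) that end at position 113443 or before, out of 10493 genes in all and 271 on this chromosome. The limit was set with the M2 values in view, so the difference between M2 and the WT is given as a description without a test, and nothing is supported with it. The 15 RNA-seq libraries came from cultures grown for 7 days under high light, with 3 biological replicates per line. M1 and M2 are knockout lines of NO08G00280, a putative methyltransferase for N6-methyladenine (6mA) in DNA, and M3 and M4 are knockout lines of NO06G02500, a putative 6mA demethylase of the AlkB family. The WT was the unmodified IMET1 strain. The mutants were made with Cas9 and a vector that carries a bleomycin resistance gene, and each line is 1 mutant, so the spread among its replicates is that of cultures of the line and not of independent knockouts.

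6mA is a DNA mark that methyltransferases write and that some AlkB proteins remove, and in the green alga *Chlamydomonas reinhardtii* it lies near the starts of active genes. Genes close to chromosome ends are weakly transcribed in many eukaryotes. In *Saccharomyces cerevisiae* this is known as the telomere position effect, in which silencing proteins spread inward from the end and act on neighbouring genes together. Descriptions were used only where the study's list of changed genes gives one, which it does for 1 of the 29 genes. NO18G00140 is described there as a PIF1 helicase, a family of DNA-unwinding enzymes that act at telomeres in *S. cerevisiae*. The other genes are given by their identifiers and positions, and fuller annotations were not used here.

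Levels are TMM-normalized TPM, that is TPM scaled by 1 factor per library, and are comparable between genes because they are per length. Relative depth, taken as coverage divided by FPKM, was 4.69 to 6.17 over the libraries (M2 4.91 to 5.34, WT 4.69 to 6.17). NO08G00280 itself stood at 11.0, 8.82 and 5.94 in M1 and 7.42, 7.64 and 6.74 in M2, against 6.70, 8.36 and 9.57 in the WT. NO06G02500 stood at 76.7, 69.8 and 69.0 in M3 and 54.5, 55.3 and 58.1 in M4, against 58.8, 55.3 and 55.7 in the WT. Transcripts of an edited gene can persist, so these values do not check the genotypes.

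The stretch runs from the first base of NO18G00010, at position 546, to position 113443. Genes lying wholly inside cover 69.5% of the first 113443 positions, against 72.0% of the next stretch of the same length. NO18G00300, which crosses the limit, is left out of both shares. Gene spans range from 219 to 18812 bases, with a median of 1004. The minus strand holds 18 of the genes and the plus strand 11. The median WT mean of the 29 genes was 2.98, against 17.8 for the 23 genes that follow and 41.9 for all 10333 nuclear genes. NO18G00250 alone (87619 to 87969, plus strand) made up 54.8% of the summed WT level, and 27 of the 29 genes had a WT mean under 10. NO18G00110 and NO18G00270 were listed at 0 in all 15 libraries. Genes were tested where their mean across the 15 libraries reached 1, which 19 genes did, 15 of them on the minus strand and 4 on the plus strand. The 10 genes below it had means between 0 and 0.951.

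The 29 genes summed to 43.4, 50.4 and 51.5 in M2, against 269, 217 and 259 in the WT. The M2 mean was 48.4 ± 4.35 and the WT mean 248 ± 27.7 (SD, n = 3 each), so M2 kept 19.5% of the WT level, and the M2 libraries lay far below all WT libraries. Without NO18G00250 the share was 21.0%, with sums of 19.4, 25.1 and 26.1 in M2 against 120, 98.3 and 118 in the WT. The genes were therefore low in M2 as a sum, and 18 of the 19 tested genes were above 0 in every M2 library. These 19 passed a filter on the mean of all 15 libraries, so this count leaves out the weakest genes. Of all 29 genes, 26 were above 0 in at least 1 M2 library. In M2 replicates 1, 2 and 3, 9, 5 and 5 of the 29 were at 0, against 4, 3 and 3 in the WT replicates. NO18G00200 (77462 to 78624) was listed at 0 in all 3 M2 libraries, against 0.844, 1.17 and 1.23 in the WT. The median coverage over the tested genes was 1.60 reads per base in M2 and 8.41 in the WT, so M2 values of short, weak genes rest on few reads.

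**Figure D1:**
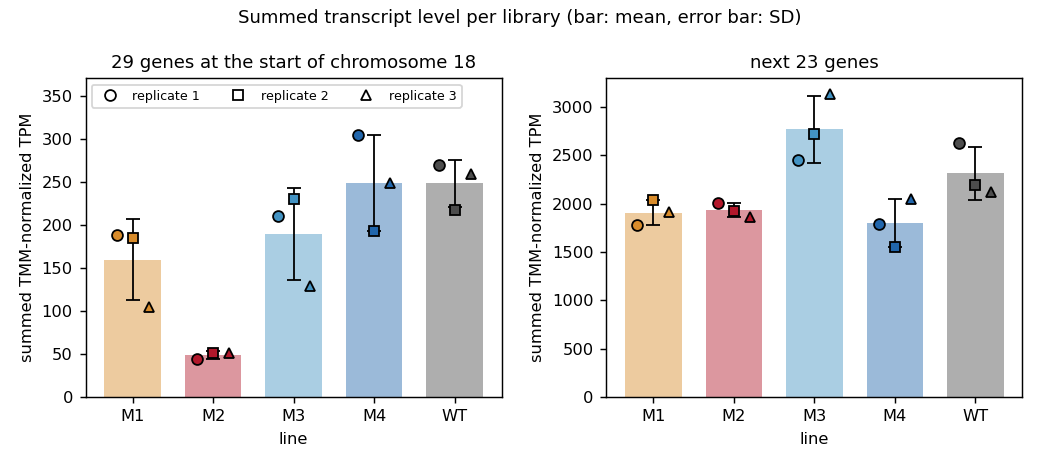
Summed TMM-normalized TPM (vertical axis, linear from 0) of the 29 genes at the start of chromosome 18 (left) and of the next 23 genes (right) in each library of M1, M2, M3, M4 and the WT. Bars are means and error bars SD (n = 3). On the left the M2 libraries lie between 43.4 and 51.5 and the WT libraries between 217 and 269, while on the right M2 spans 1863 to 2008 and the WT 2121 to 2627.

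For each of the 6 most abundant genes, the M2 libraries lay below every other library. NO18G00250 had 24.0, 25.3 and 25.4 in M2, against 149, 118 and 140 in the WT. It is a short gene with the highest coverage of the stretch, 51.9 to 59.2 in M2 and 223 to 371 in the WT, so low read depth does not limit its value. NO18G00220 (80808 to 81450, minus strand) had 4.75, 5.69 and 7.19 in M2, against 34.05, 27.7 and 29.9 in the WT. NO18G00120 (51357 to 52331, minus strand) had 1.34, 0.986 and 0.748 in M2, against 9.98, 8.86 and 8.17 in the WT. The highest M2 library of each gene was far below its lowest WT library. NO18G00150 (56995 to 64068, minus strand) had 1.69, 1.60 and 1.54 in M2, against 9.06, 7.38 and 8.66 in the WT. NO18G00190 (72502 to 74656, minus strand) had 0.825, 1.61 and 2.20 in M2, against 7.30, 7.39 and 8.52 in the WT. NO18G00100 (45377 to 51280, minus strand) was higher in M2 relative to its WT level, with 2.98, 3.37 and 2.06 against 9.81, 7.23 and 10.4. It overlaps NO18G00110 on the other strand, and no counting by strand is stated for these libraries, so the reads of this pair may not be separable.

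**Figure D2:**
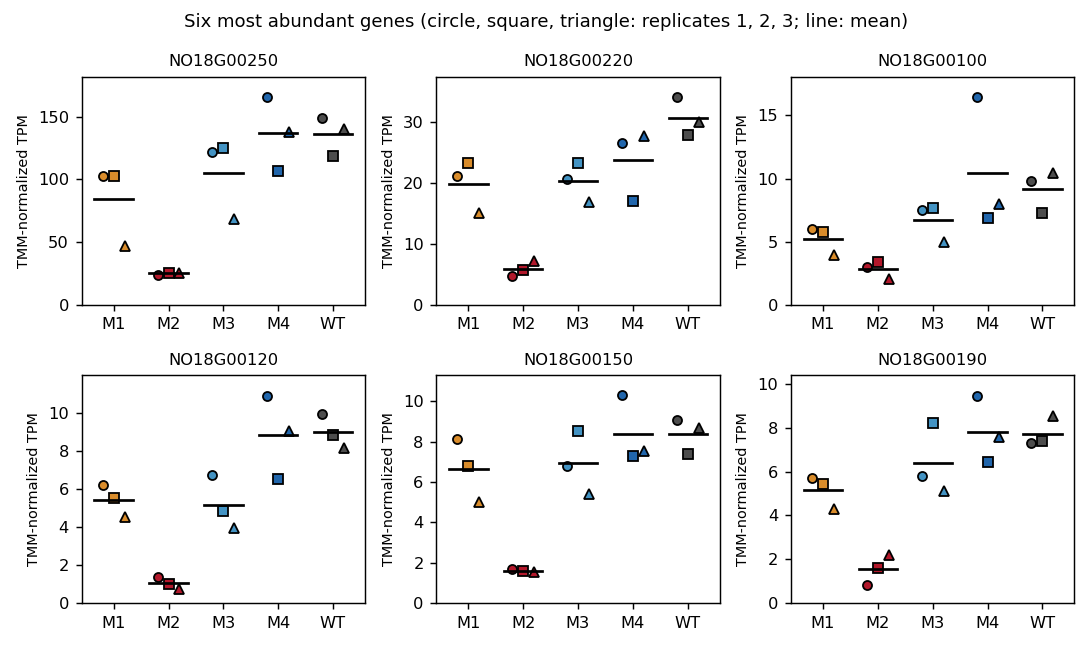
TMM-normalized TPM (vertical axes, linear from 0) of the 6 most abundant genes of the stretch in each library of M1, M2, M3, M4 and the WT, with a line at the mean of each group (n = 3). In all 6 panels the M2 libraries are below every WT library, as for NO18G00250 with 24.0 to 25.4 in M2 and 118 to 149 in the WT.

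The other 13 tested genes were weaker, with WT means of 1.68 to 4.98, and were lower in M2 too. NO18G00010 (546 to 5235, minus strand), the first gene of the chromosome, had 0.328, 1.01 and 0.761 in M2, against 2.39, 2.59 and 2.77 in the WT. NO18G00060 (22260 to 41071, minus strand), the longest gene of the stretch, had 0.395, 0.499 and 0.260 in M2, against 1.76, 1.23 and 2.04 in the WT. NO18G00070 (41551 to 42133, minus strand) had 0.244, 0.384 and 0 in M2, against 1.87, 2.61 and 1.47 in the WT. The same gene was also listed at 0 in M4 replicate 2. NO18G00180 (70306 to 70876), 1 of the 4 tested genes on the plus strand, had 0.354, 0.659 and 0.846 in M2, against 4.24, 3.33 and 7.36 in the WT. Some weak genes also scattered widely between cultures of other lines. NO18G00130 (53533 to 53877) had 3.66, 6.57 and 0.579 in M3 and 4.20, 3.44 and 11.4 in M4, and NO18G00020 (9648 to 10121) had 10.2, 3.76 and 2.02 in M4, against 5.66, 2.81 and 5.46 in the WT.

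NO18G00140 (53929 to 54958, minus strand), the PIF1 helicase, had 0.343, 0.328 and 0.723 in M2, against 4.77, 1.33 and 3.27 in the WT. The WT libraries differed by more than 3-fold, and none of them reached down to M2. Over the 19 tested genes, the M2 mean was between 10.5% of the WT mean (NO18G00070) and 42.3% (NO18G00290), with a median of 19.2%. Every M2 library was below every WT library for all 19 tested genes and for 21 of the 29, where 26.6% of all tested genes showed this. In the following stretch 8 of the 20 tested genes showed it too, and 3 had every M2 library above every WT library. Since this contrast set the limit of the stretch, these counts are only a description. Along the chromosome the M2 share showed no steady slope, with medians of 22.9%, 16.2% and 24.2% of the WT mean in the first 7, next 6 and last 6 tested genes.

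The last gene inside the limit, NO18G00290 (103109 to 113443, minus strand), had 1.90, 2.03 and 1.61 in M2, against 4.41, 4.45 and 4.22 in the WT. NO18G00280 before it (101036 to 102039) had 1.38, 0.968 and 0.317 in M2, against 2.77, 3.35 and 3.21 in the WT. The next gene, NO18G00300 (111521 to 116782, plus strand), starts before the limit and ends after it, and had 6.58, 5.91 and 6.54 in M2, against 3.70, 5.05 and 5.64 in the WT. NO18G00290 and NO18G00300 lie on opposite strands and share 1923 bases, so their reads may not be separable in this overlap. NO18G00310 (130918 to 131956), the first gene wholly outside, had 169, 170 and 189 in M2, against 206, 249 and 234 in the WT. The next ones, NO18G00320, NO18G00330 and NO18G00340, had means of 25.5, 1368 and 13.8 in M2, against 18.9, 1660 and 18.6 in the WT, and NO18G00350 stayed at or below 0.54 in every M2 and WT library.

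**Figure D3:**
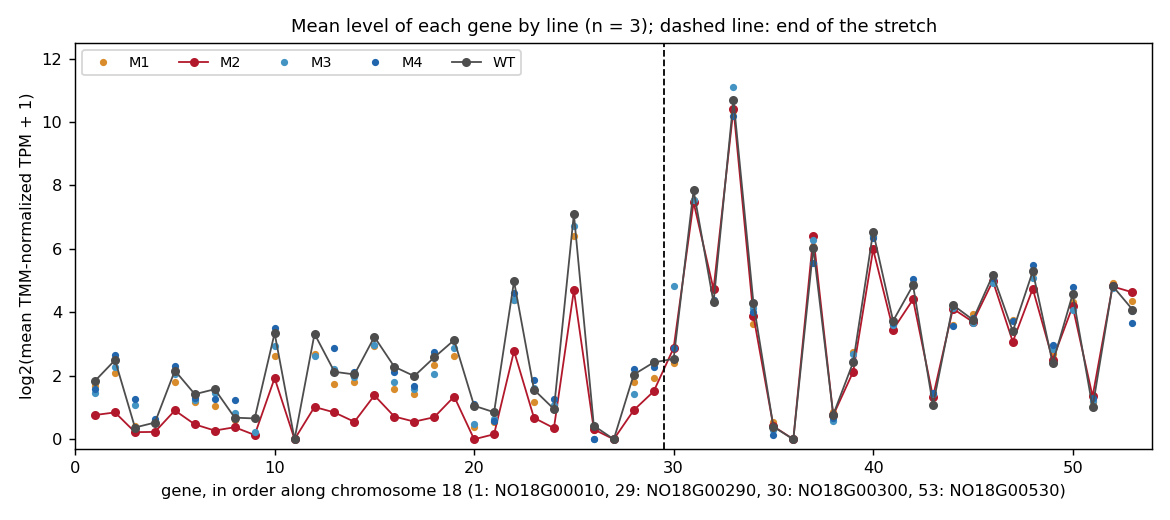
Mean level of each gene on a log2(TMM-normalized TPM + 1) axis, for M1, M2, M3, M4 and the WT (n = 3), against gene order along chromosome 18. Points of M2 and the WT are joined by lines, which run apart for the 19 tested genes and meet at 0 for NO18G00110 and NO18G00270. After the dashed line they lie closer together, with a median difference of -0.27 over the 20 tested genes of the following stretch. There NO18G00310 has 169 to 189 in M2 and 206 to 249 in the WT.

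The median difference between M2 and the WT on the log2(value + 1) scale was -1.16 over the 29 genes and -1.41 over the 19 tested ones. It was -0.27 over the 20 tested genes of the following stretch, -0.02 over the 225 tested genes on the rest of the chromosome and 0.21 over the 28 tested genes of its last stretch of the same length. Over the tested nuclear genes the median was 0.00. First stretches of the same length on the other 29 nuclear chromosomes had medians between -0.82 and 0.26. The lowest of these, on chromosome 30, rests on 4 tested genes, and the next, on chromosome 5, was -0.53 over 23 genes. Differences on this scale understate changes of weak genes.

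M1 carries a knockout of the same gene as M2 and was compared with the WT and with M2. The 29 genes summed to 189, 185 and 105 in M1, with a mean of 160 ± 47.5 against 248 ± 27.7 in the WT (SD, n = 3 each), or 64.3% of it. M1 thus lay between M2 and the WT, and replicate 3 was well below the other 2. Every M2 library was below every M1 library for all 19 tested genes, where 23.1% of all tested genes showed this. The median difference of M2 minus M1 was -0.79 over the 29 genes. M2 entered the choice of the stretch, so this too is a description.

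The difference between M1 and the WT was below 0 for all 19 tested genes, where 4617 of all 9440 tested genes were below 0. It ran from -0.77 to -0.15 on the log2 scale, with a median of -0.39. The genes moved together among cultures of a line, as given below, so the 19 signs are not separate observations. None of the 19 was called at an adjusted p under 0.05 by limma, where 1.73% of all tested genes were called. At an unadjusted p under 0.05 limma gave 7 of the 19, all lower, where 17.4% of all tested genes passed in either direction and 9.49% as lower. These were NO18G00100, NO18G00120, NO18G00160, NO18G00190, NO18G00220, NO18G00250 and NO18G00290. Without M1 replicate 3 the number was 2, and without WT replicate 1 it was 3. The median over the 29 genes was -0.30 and came to -0.20 without M1 replicate 3 and to -0.50 with a pseudocount of 0.1. It was -0.63 with a minimum mean of 5, which leaves 6 of the 29 genes. All M1 libraries were below all WT libraries for 8 of the 19, where 11.0% of tested genes showed this. The WT libraries also served to set the limit of the stretch.

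NO18G00250 had 103, 103 and 47.0 in M1, against 149, 118 and 140 in the WT, and its difference was -0.77 on the log2 scale (SE 0.30, adjusted p = 0.219 from limma). The M1 libraries were all below the WT ones, with replicate 3 farthest. NO18G00160 (65824 to 67635, minus strand) had 1.75, 2.50 and 1.74 in M1, against 4.45, 3.66 and 3.51 in the WT, and the smallest adjusted p of the stretch in M1 (difference -0.71, SE 0.22, adjusted p = 0.130). NO18G00290 had 3.62, 2.85 and 2.10 in M1, against 4.41, 4.45 and 4.22 in the WT (difference -0.50, SE 0.17, adjusted p = 0.155). Both genes were lower in every M1 library than in any WT library, and neither passed the test. NO18G00140, the PIF1 helicase, had 2.69, 2.71 and 2.09 in M1, inside the range of 1.33 to 4.77 in the WT. The median difference over the following stretch was 0.05 in M1, and none of its 20 tested genes was called.

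In M3 and M4, the knockouts of the putative demethylase gene, the 29 genes summed to 210, 230 and 129 in M3 and to 304, 193 and 248 in M4, against 269, 217 and 259 in the WT. The M3 mean was 76.3% of that of the WT and the M4 mean 100.1%, and in both lines the libraries reached into the WT range. The M3 libraries also overlapped those of M1, and M3 was not tested against M1 alone. None of the 19 tested genes was called in M3 or in M4 against the WT by limma, where 0.985% and 5.33% of all tested genes were called. At an unadjusted p under 0.05, 4 of the 19 were lower in M3 and none higher. Of all tested genes 20.6% passed in either direction and 10.3% as lower. In M4 none of the 19 passed at that level, where 21.3% of all tested genes did. The 4 in M3 were NO18G00120, NO18G00160, NO18G00220 and NO18G00280, and the number was 1 without M3 replicate 3 or without WT replicate 1. All libraries of the line were below all WT libraries for 5 of the 19 in M3, where 12.3% of tested genes showed this, and for 3 in M4, where 15.1% did. The median differences over the 29 genes were -0.24 in M3 and 0.00 in M4. The difference was below 0 for 17 of the 19 tested genes in M3 and for 11 in M4, where 4593 and 4814 of all 9440 tested genes were. The M3 median was -0.11 without M3 replicate 3 and -0.11 without WT replicate 3, and -0.38 with a pseudocount of 0.1. With a minimum mean of 5, which leaves 6 of the 29 genes, it was -0.41.

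M4 and M3 were compared as knockouts of one gene. NO18G00120 was the 1 of 19 that passed the test, being higher in M4, where 11.8% of all tested genes were called higher. It had 10.9, 6.54 and 9.05 in M4, against 6.75, 4.83 and 3.97 in M3, so that the lines overlapped. The difference was 0.67 on the log2 scale (SE 0.22, adjusted p = 0.0402 from limma). It ended in 12 of 25 alternatives, among them those without M3 replicate 2, M3 replicate 3, M4 replicate 1 or M4 replicate 3 (adjusted p = 0.0983, 0.145, 0.129 and 0.103). At an unadjusted p under 0.05, 2 of the 19 passed, both higher in M4. Of all tested genes 37.6% passed in either direction and 17.6% as higher. The second was NO18G00280 (difference 0.80, SE 0.29, adjusted p = 0.0624), with 4.82, 3.47 and 2.53 in M4 against 1.69, 2.60 and 0.805 in M3. The difference of M4 minus M3 was above 0 for 17 of the 19, where 4588 of all 9440 tested genes were above 0.

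Between the genes knocked out, M1 was set against the mean of M3 and M4. The difference was below 0 for 17 of the 19, with a median of -0.27, where 4573 of all 9440 tested genes were below 0. The genes moved together among cultures, so these signs are not separate observations. None of the 19 genes was called by limma, where 5.21% of all tested genes were. At an unadjusted p under 0.05, 1 of the 19 passed, NO18G00290, where 20.9% of all tested genes did. Its difference was -0.44 (SE 0.14, adjusted p = 0.106), with 3.62, 2.85 and 2.10 in M1 against 5.19, 4.43 and 3.96 in M3 and 4.11, 3.81 and 3.52 in M4. This gene overlaps NO18G00300. The number at an unadjusted p under 0.05 was 0 without overlapping genes, which leaves this gene out, and 7 without M3 replicate 3.

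Cultures of one line differed from each other in the whole stretch at once. M1 replicate 3 had the lowest value of its line for 17 of the 19 tested genes and M3 replicate 3 for 18 of them. M4 replicate 1 had the highest value for 15 and M4 replicate 2 the lowest for 14. In the following stretch the same 4 counts were 8, 9, 10 and 8 of 20 genes. M2 replicate 1 was lowest for 11 genes and WT replicate 2 for 11, so the ordering was looser in these groups. The depth ratio was 5.29 in M1 replicate 3, against 5.12 and 5.26 in the other M1 libraries, and 5.18 in M3 replicate 3, against 5.37 and 5.51 in the other M3 libraries. Whether depth played a part was not tested.

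**Figure D4:**
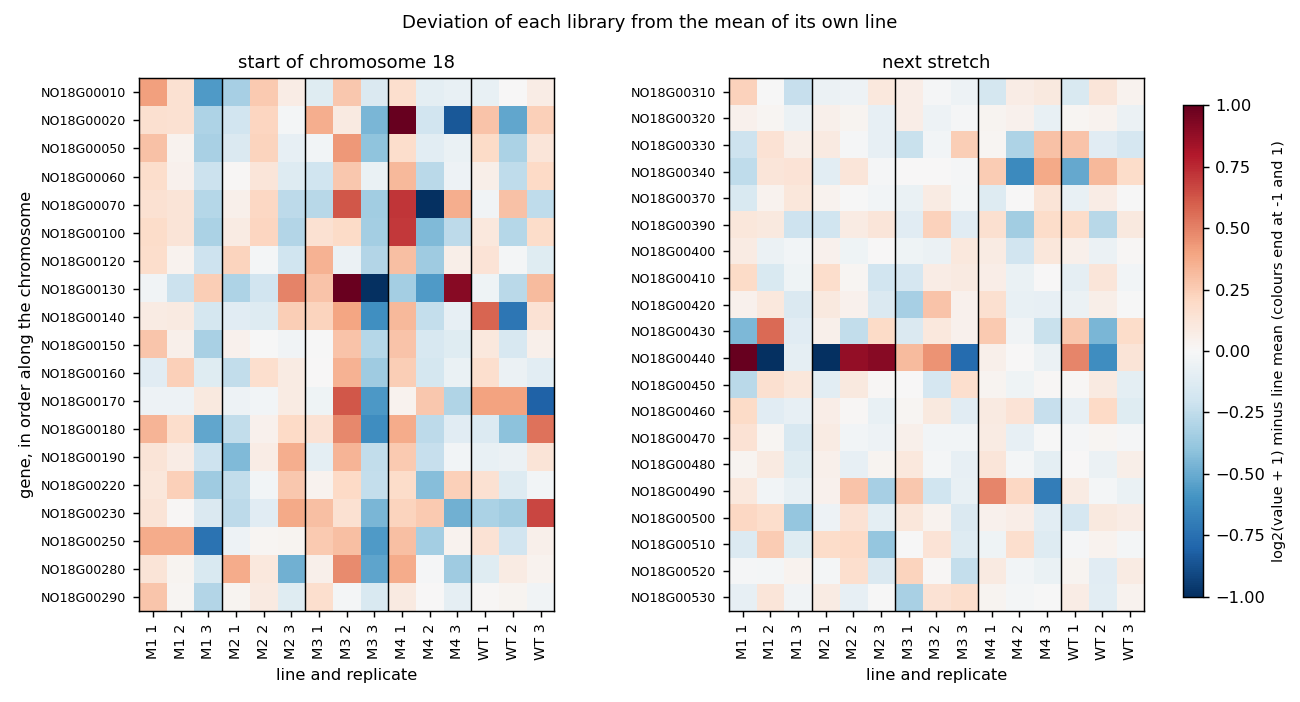
Difference of each library from the mean of its own line on the log2(value + 1) scale, in colour, for the 19 tested genes of the stretch (left) and the 20 tested genes of the next one (right), by gene (rows) and by line and replicate (columns). On the left, blue columns mark M1 replicate 3 and M3 replicate 3, lowest of their lines for 17 and 18 genes, and on the right few columns have one colour.

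This shared movement can be put as a correlation of the deviations from line means across the 15 libraries. Over the 171 pairs of tested genes, the median Pearson r was 0.51, and 95.3% of the pairs were above 0. It was 0.04 over 190 pairs in the following stretch and 0.02 over 378 pairs in the last stretch of the chromosome. On the first stretches of the other 29 chromosomes the median r lay between -0.06 and 0.12. Without the M2 libraries the median r of the stretch was 0.58, without the M1 and M3 libraries 0.38, and with the M2 and WT libraries alone 0.21. The pairs share their libraries, overlapping genes can share reads, and pairs of genes are not independent, so these values are a description.

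The genes outside the stretch with the pattern most like the mean profile of its 19 tested genes were sought over all 15 libraries, among 9323 tested nuclear genes, by Pearson r. They were NO27G01660 (r = 0.95), NO02G00010 (0.95), NO01G00950 (0.95), NO21G02060 (0.95) and NO08G03560 (0.95), and 117 genes had an r above 0.9, for which the low M2 values count much. NO02G00010, the first gene of chromosome 2 (1610 to 3678), had 92.2, 67.7 and 38.0 in M1, 10.7, 9.29 and 9.14 in M2, 78.6, 69.8 and 41.4 in M3 and 186, 132 and 143 in M4, against 83.6, 71.7 and 79.2 in the WT. As in the stretch, M1 replicate 3 and M3 replicate 3 were the lowest of their lines and M4 replicate 1 the highest, and the r of its deviations from line means was 0.81. NO27G01660 (chromosome 27, 552799 to 553900) had 954, 773 and 342 in M1, 121, 103 and 134 in M2, 685, 695 and 519 in M3 and 1545, 1177 and 1317 in M4, against 933, 806 and 894 in the WT. Its lowest M1 and M3 libraries and its highest M4 library were the same replicates, with an r of deviations of 0.69. NO01G00950, NO21G02060 and NO08G03560 kept 72.8%, 50.7% and 34.5% of their WT means in M2, with an r of deviations of 0.76, 0.44 and 0.46. Of these, only NO01G00950 had its lowest M3 value in replicate 3, and NO08G03560 had its highest there. All these genes were chosen by r over the same libraries, so their r of deviations is not independent of that choice. NO18G00840, farther along chromosome 18 (319803 to 320694), had 0.955, 0.535 and 0.328 in M2, against 8.71, 6.36 and 6.14 in the WT, with an r of 0.92.

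NO18G00300, which is described as a glycosyl hydrolase, an enzyme class that cleaves sugar chains, had a pattern of its own at the limit of the stretch. It had 30.4, 27.9 and 23.5 in M3 and 6.84, 6.03 and 6.16 in M4, against 3.70, 5.05 and 5.64 in the WT. M3 was far above every other library. The difference between M3 and the WT was 2.29 on the log2 scale (SE 0.15, adjusted p = 1.88e-05 from limma), and M4 minus M3 was -1.94 (SE 0.15, adjusted p = 7.28e-05). NO18G00290, which overlaps it, had 5.19, 4.43 and 3.96 in M3, against 4.41, 4.45 and 4.22 in the WT (difference 0.04, adjusted p = 0.942). Of the 20 tested genes of the following stretch, 1 was called in M4 and none in M1 or M3 against the WT. It was NO18G00370 (154181 to 157384), with 42.2, 46.2 and 50.7 in M4 against 60.9, 67.7 and 64.1 in the WT (difference -0.46, SE 0.08, adjusted p = 0.0143). That call ended without WT replicate 2, without M4 replicate 2 and in a fit of M4 and the WT alone (adjusted p = 0.0525, 0.0583 and 0.0720).

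**Figure D5:**
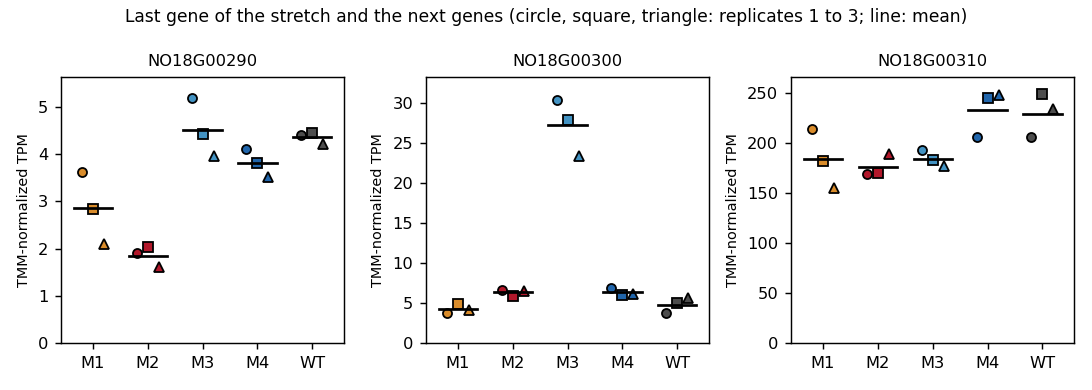
TMM-normalized TPM (vertical axes, linear from 0) of the last gene inside the stretch, NO18G00290, of NO18G00300, which overlaps it, and of NO18G00310, in each library of M1, M2, M3, M4 and the WT, with a line at each mean (n = 3). NO18G00290 has 1.61 to 2.03 in M2 and 4.22 to 4.45 in the WT, and NO18G00300 reaches 23.5 to 30.4 in M3.

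NO18G00140 is 1 of 6 genes described as helicases in the gene list that the study drew from these libraries, so the set is not independent of them. None of the 6 was called in M1, M3 or M4 against the WT by limma, where 1.73%, 0.985% and 5.33% of all tested genes were, so with 6 genes nothing is read from this count. In M2 the set did not share the low level of NO18G00140. NO11G02780 had 5.99, 6.65 and 5.68 in M2, against 3.06, 2.20 and 2.90 in the WT, and NO24G00220 had 8.28, 8.72 and 7.41 in M2, against 3.76, 3.00 and 4.11 in the WT. Both were higher in every M2 library than in any WT library. NO29G00430 was listed at 0 in every library except M1 replicates 1 and 2 and M2 replicates 1 and 2, its neighbour NO29G00440 had means of 9.53 ± 7.95 in M2 and 6.97 ± 1.47 in the WT (SD, n = 3 each), and NO16G02020, which overlaps another gene, had 239 ± 105 in M2 and 491 ± 324 in the WT.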

How the data were processed

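RNA-seq of 15 libraries was used. Per the study's methods, libraries were made with the NEBNext Ultra RNA kit, which is not a directional kit, and reads were processed with nf-core/rnaseq and STAR. Counting by strand is not given in the sources used here. The matrix that the authors deposited is in TMM-normalized TPM and in each library equals the TPM that the authors deposited in the StringTie tables times 1 factor (0.947 to 1.05). The coverage and FPKM that the authors deposited in these tables give reads per base and a level per length and depth. There are no read counts, so no counting error is given and the count model of the study's methods, edgeR, could not be run.

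The 9440 genes whose mean across libraries reached 1 were tested on log2(value + 1) with limma 3.58.1 in R 4.3.3, by group means and an intensity trend (trend=TRUE), and p-values were adjusted by Benjamini-Hochberg over all genes tested, with calls under 0.05. Positions came from the StringTie tables. The stretch, its genes, the helicase list and all lists were chosen with earlier results of these data known. Named genes were all genes of the stretch, the first 5 that follow it, genes of the following stretch called in M1, M3 or M4, NO18G00300, NO18G00840, both knocked-out genes, the helicase list and the 5 most similar profiles. NO18G00280 in M4 and the counts within lines were chosen after their values were seen. Alternatives were other pseudocounts, filters and normalizations, a replicate block, fits of the compared groups alone, stricter thresholds, leaving out overlapping genes and leaving out each library. Summaries and figures used Python 3.11.15.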

Additional observations from a re-analysis of the deposited data

Results flagged for a closer look

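M4 and M3 are 1 mutant each of the same knocked-out gene, so a difference between them is one between 2 lines and not a tested effect of the knockout. By limma's test of M4 minus M3, 7 of the genes named above differed. Of all tested genes 25.65% were called in either direction, so the count itself is not read as a result. NO18G00120, inside the stretch, differed by 0.67 on the log2 scale (SE 0.22, adjusted p = 0.0402), and neither line differed from the WT in it by the test (adjusted p = 0.946 in M4 and 0.111 in M3). NO18G00300, at the limit of the stretch, differed by -1.94 (SE 0.15, adjusted p = 7.28e-05), being high in M3. In the following stretch, NO18G00370 differed by -0.73 (SE 0.08, adjusted p = 0.000966), with 42.2, 46.2 and 50.7 in M4 against 73.9, 81.7 and 76.4 in M3, and NO18G00330 by -0.91 (SE 0.17, adjusted p = 0.00396), with 1165, 928 and 1410 in M4 against 1848, 2118 and 2563 in M3. Of the genes with a similar profile, NO02G00010 differed by 1.30 (SE 0.29, adjusted p = 0.00829) and NO27G01660 by 1.09 (SE 0.29, adjusted p = 0.0190). The targeted gene NO06G02500 differed by -0.35 (SE 0.07, adjusted p = 0.00393).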

How the results depend on the processing

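In M1, M3 and M4 against the WT, and in M1 against the mean of M3 and M4, the number of genes of the stretch called lower or higher was 0 under all 26 alternatives run. In the fit of the compared groups alone, 21, 10 and 129 of all tested genes were called in M1, M3 and M4 against the WT. For M1 against the mean of M3 and M4 the number was 121. Where so few genes are called, a count of 0 says little about the stretch. For M4 against M3, the number called lower was 0 under all alternatives. The number called higher, 1, was 0 with a pseudocount of 0.1, a minimum mean of 5, a fit of the compared groups alone, the stricter thresholds (adjusted p of 0.001 or less and more than 2-fold) and, added after seeing the data, without M1 replicate 3 and M3 replicate 3 together. It was 2 without a filter and 2 with a replicate block, and 0 to 2 when single libraries were left out. Replicate numbers name cultures only, and the main fit did not pair the samples by them. Deviations showed little correlation (r of -0.07 to 0.09 over all pairs of same-numbered libraries). This r cannot show whether same-numbered cultures shared a batch.

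The median of M2 minus the WT (-1.16) was -1.91 with a pseudocount of 0.1, -1.53 with 0.5, -1.41 with a minimum mean of 1 and -2.02 with a minimum mean of 5, and -1.21 to -1.12 when single libraries were left out. A minimum mean of 1 leaves 19 of the 29 genes and a minimum of 5 leaves 6, so these medians are over fewer genes. The median of M2 minus M1 (-0.79) was -1.54, -1.11, -0.92 and -1.56 under the same 4 settings and -0.87 to -0.68 when single libraries were left out. The block, the fit of the groups alone and the test thresholds cannot move a median of differences. With a median M2 coverage of 1.60 reads per base, small differences of short, weak genes may go unseen in M2, which was not tested.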
